A study of Arabidopsis thaliana with 2 samples.

Results

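Distal LHY regions are stretches of Arabidopsis thaliana chromatin, well away from any protein-coding gene, that were enriched by an antiserum against the clock protein LHY. LHY is a MYB-type transcription factor that peaks around dawn, mainly represses genes of the evening, and also acts on flowering, stress and growth pathways. Most regulatory DNA of Arabidopsis lies close to genes, because the genome is compact, but a few developmental and flowering genes are known to be controlled by enhancers several kilobases away. Members were the regions whose midpoint lay more than 2000 bp from every nuclear protein-coding gene and outside genes for long non-coding RNA (lncRNA). Pericentromeric windows were left out, namely 12.5 to 17.5 Mb on chromosome 1, 1.5 to 6.5 Mb on chromosome 2, 11 to 16.5 Mb on chromosome 3, 1.5 to 5.5 Mb on chromosome 4 and 9.5 to 14.5 Mb on chromosome 5. This rule gave 866 of the 14718 regions of the list, or 5.88%. A further 33 arm regions at this distance fell inside lncRNA genes and were not counted.

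The study used chromatin immunoprecipitation and sequencing on whole seedlings of the WS ecotype, 2 weeks old, collected 2 h after dawn and fixed with 1% formaldehyde for 10 min. One library came from wild-type plants and the other from lhy-21, the LHY knock-out, which served as the control with the same antiserum, and each library pooled 9 immunoprecipitations. The deposited file is a single list of regions with more reads in wild type than in lhy-21, each with the authors' score. With 1 library per genotype there was no replicate check, no value per sample could be given, and no difference below was tested. The 95% intervals are exact and cover counting error over regions, gaps or genes, which are not independent. Read numbers, read mappability and signal tracks were not analysed here, and markers of the labelled tissue cannot be read from a region list. All coordinates are TAIR9, counted from 1.

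Distal regions had scores and widths close to those of regions near genes. Their median score was 10.0 (95% interval 9.39 to 11.0), the quartiles were 5.85 and 22.4, and the extremes were 2.01 and 149. The median was 9.79 for arm regions inside protein-coding genes, 10.4 for those up to 1000 bp outside and 9.49 for those 1000 to 2000 bp outside. Their median width was 289 bp (264 to 313), against 285 bp for all other arm regions, and their range was 103 to 1957 bp. The strongest 25.0% of the whole list held 218 of the 866 (25.2%, 22.3 to 28.2). The strongest 10.0% held 84 of them (9.70%, 7.81 to 11.9). Both shares sit at the background. Of the 100 strongest regions of the whole list 2 were distal, and of the 1000 strongest 55. Across the 866 regions the Spearman correlation of score with distance was -0.0288 and that of score with width 0.742, given as descriptions of 1 list.

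**Figure D1:**
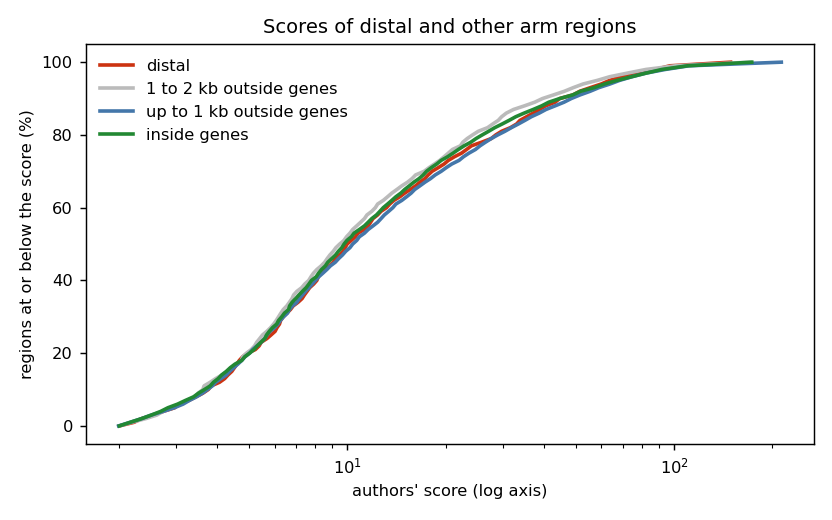
Cumulative share of regions (y axis, %) at or below each score (x axis, authors' score, log axis) for distal regions and for arm regions inside genes, up to 1 kb outside and 1 to 2 kb outside. The 4 curves run close together, with medians of 10.0, 9.79, 10.4 and 9.49.

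Most distal regions lay just beyond the limit. The median distance from the nearest gene was 2790 bp and the quartiles were 2318 and 3569 bp, while 346 regions were over 3000 bp away, 165 over 4000 bp and 27 over 6000 bp. The median score was 11.1 at 2000 to 2500 bp (n = 320), 10.7 at 4000 to 6000 bp (n = 138) and 7.86 beyond 6000 bp (n = 27, interval 4.63 to 13.2). The 3 members nearest to the limit lay 2002, 2004 and 2004 bp from a gene with scores of 2.57, 3.77 and 66.6. The 3 regions just short of it all lay 1999 bp away, with scores of 6.55, 79.9 and 6.27. The midpoint decides membership, and 138 of the 866 reach with an edge to within 2000 bp of a gene.

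On the arms, distal sequence carried about as many regions per Mb as the arms as a whole, at 153 against 150 per Mb. Distal sequence outside lncRNA genes made up 5.97% of arm base pairs and held 6.09% (5.70 to 6.49) of arm regions. Density fell with distance from genes. It was 465 per Mb in the first 200 bp outside a gene, 217 at 1000 to 2000 bp, 182 at 2000 to 3000 bp, 137 at 3000 to 4000 bp, 137 at 4000 to 6000 bp and 58.2 beyond 6000 bp. Inside protein-coding genes it was 81.6 per Mb, below every distance class up to 6000 bp. The same decline was seen within the 461 gaps of at least 8 kb between neighbouring genes, where each class up to 4000 bp is drawn from the same gaps. There it was 336 per Mb in the first 500 bp, 180 at 1000 to 2000 bp, 151 at 2000 to 3000 bp and 113 beyond 4000 bp.

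**Figure D2:**
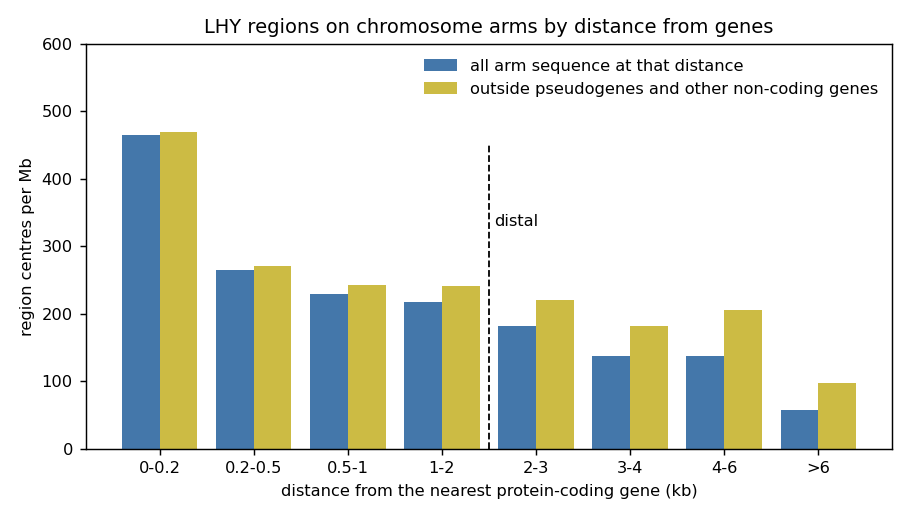
Region centres per Mb of arm sequence (y axis) by distance from the nearest protein-coding gene (x axis, kb), for all sequence at that distance and for sequence outside pseudogenes and other annotated non-coding genes. The dashed line marks the 2 kb limit. Beyond it the values run from 182 to 58.2 per Mb over all sequence and from 221 to 97.1 outside the other genes.

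Annotated pseudogenes were nearly free of distal regions. Here and below, pseudogenes annotated as transcribed are a separate class, counted with the other non-coding genes. The pseudogenes not annotated as transcribed made up 21.6% of distal arm base pairs but held 4 of the 866 centres (0.462%, 0.126 to 1.18), or 3.28 per Mb. Transcribed pseudogenes made up 2.44% of distal base pairs and held 5 centres (0.577%, 0.188 to 1.34). The scarcity was not particular to distal sequence, since pseudogenes 1000 to 2000 bp from genes held 4.45 centres per Mb, against 217 over all sequence there. The share of base pairs in pseudogenes rose with distance, from 15.1% at 2000 to 3000 bp to 37.4% beyond 6000 bp. Outside pseudogenes and all other annotated non-coding genes the distal density was 202 per Mb, with 221 at 2000 to 3000 bp, 182 at 3000 to 4000 bp, 205 at 4000 to 6000 bp and 97.1 beyond 6000 bp. With members required to lie more than 2000 bp from these other genes as well, 705 remained at 237 per Mb. How well reads can be placed in pseudogenes was not tested.

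Distal regions became denser away from the centromeres. There were 53.1 per Mb of distal sequence in the first 1 Mb beyond the pericentromeric windows, 120 in the next 1 Mb, 124 from 2 to 4 Mb and 241 farther out, where 573 of the 866 lay. All arm regions together went from 92.4 to 169 per Mb over the same zones. The share of distal base pairs in pseudogenes moved the opposite way, from 33.4% to 12.2%. Outside other annotated genes the distal density went from 77.5 to 281 per Mb. The part of pseudogenes in this gradient was not tested. By chromosome, the count and density were 254 and 171 per Mb on chromosome 1, 166 and 146 on chromosome 2, 143 and 157 on chromosome 3, 119 and 126 on chromosome 4, and 184 and 157 on chromosome 5. Median scores per chromosome ranged from 9.69 to 10.8.

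Distal regions were gathered in a minority of the long gaps. Of 2144 gaps over 4000 bp between neighbouring protein-coding genes, 524 held at least 1 (24.4%, 22.6 to 26.3). The share was 12.3% (10.1 to 14.9) for gaps of 4000 to 5000 bp, 29.0% (25.0 to 33.3) for 6000 to 8000 bp and 43.1% (34.2 to 52.3) over 12000 bp. Longer gaps offer more distal sequence, and per Mb of it the number of regions went the opposite way, from 284 in gaps of 4000 to 5000 bp and 161 at 6000 to 8000 bp to 92.9 over 12000 bp. In all, 182 gaps held more than 1, and 88 gaps with 3 or more held 335 regions, or 38.7% of all distal regions. The highest distal score in a gap had a median of 10.2 (9.07 to 12) where there was 1 region and 32.3 (23.3 to 40.5) where there were 3 or more. The latter gaps were longer, with a median of 9687 against 5986 bp, and a maximum over more regions is higher by construction.

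Gaps with a distal region also had regions nearer to the bordering genes. A centre within 2000 bp of a border lay in 398 of the 524 gaps with a distal region (76.0%, 72.1 to 79.6) and in 713 of the 1620 without (44.0%, 41.6 to 46.5). The difference was present at each gap length, with 80.0% against 48.5% at 4000 to 6000 bp, 75.7% against 41.1% at 6000 to 8000 bp and 72.0% against 31.2% above. More than 4 Mb from the pericentromeric windows it was 78.7% (74.0 to 82.9) against 55.5% (51.8 to 59.1), and nearer to them 70.7% (63.5 to 77.2) against 34.3% (31.2 to 37.6). Gene by gene, 411 of the 637 nearest genes had a region inside or within 1000 bp (64.5%, 60.7 to 68.2), compared with 45.2% of all 25430 arm genes and 41.6% of genes that border such a gap without a distal region. Where the nearest gene had such a region, the distal one had the higher score in 220 of 567 cases (38.8%). For 124 distal regions (14.3%, 12.1 to 16.8) neither flanking gene had a region inside or within 1000 bp.

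**Figure D3:**
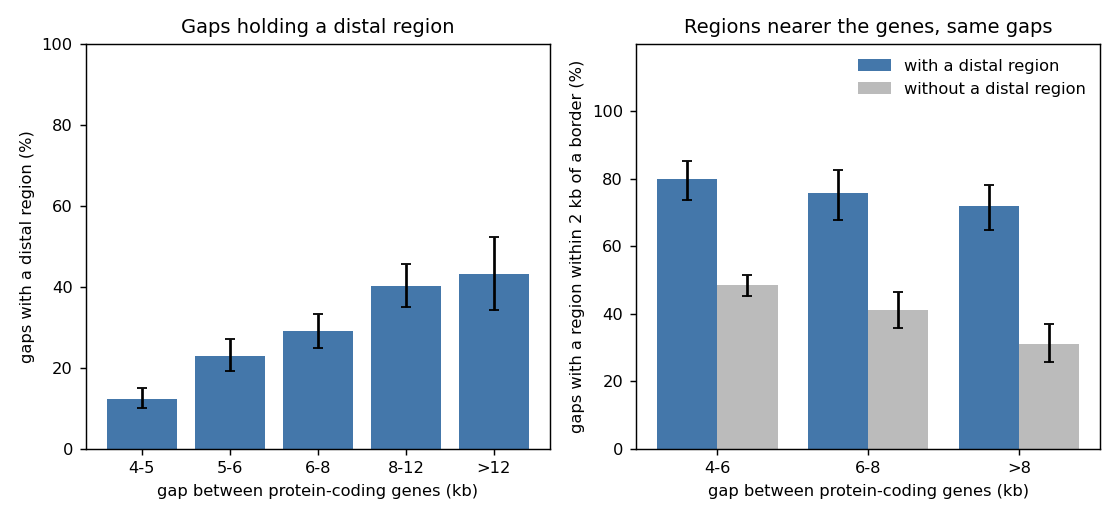
Left, share of gaps between protein-coding genes that hold a distal region (y axis, %) by gap length (x axis, kb), from 12.3% to 43.1%. Right, share of gaps with a region within 2 kb of either border (y axis, %), for gaps with and without a distal region, by gap length. Error bars are exact 95% intervals. Gaps with a distal region stand higher in all 3 length classes.

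Neighbouring distal regions were often close to each other or to a region nearer a gene. Of the 866, 431 had another centre within 1000 bp (49.8%, 46.4 to 53.2), against 53.7% (51.2 to 56.2) of regions 1000 to 2000 bp outside genes, 39.5% up to 1000 bp outside and 36.5% inside genes. After merging regions within 200 bp, the share fell to 26.7% (23.5 to 30.1) for distal regions, to 30.3% (27.8 to 33.0) for regions 1000 to 2000 bp outside genes and to 19.6% (18.9 to 20.3) for all arm regions that are not distal. Of the distal regions, 79 had no other centre within 5000 bp.

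The strongest distal region, with a score of 149 and rank 20 in the list, lay at chr1:22099011-22099984. It was 2877 bp from AT1G60010 and 14174 bp from NAT7, a nucleobase transporter family gene. The next, at chr5:8768412-8769385, scored 128 and lay 4836 bp from AT5G25280 and 5893 bp from AT5G25270. AT5G25280 had a region of its own at 69.4. A score of 112 was found at chr2:12192586-12193347, 4673 bp from LBD11, a LOB-domain transcription factor gene whose own highest score was 23.1. Between CLE43, which encodes a signalling peptide, and BBX15, a B-box zinc finger gene, the region at chr1:8926268-8926857 scored 107. The region at chr1:22419283-22420029, 2344 bp from AT1G60890, scored 103. In these 5 cases a gene on at least 1 side also had a region, and the distal one scored higher each time.

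Among the remaining 15 of the 20 strongest, scores ran from 100 to 85.6. GA20OX3, of the last steps of gibberellin synthesis, had the region at chr5:2240677-2241856, scored 100 and 2287 bp away, and no region inside or within 1000 bp. CIA2, a regulator of chloroplast protein import genes, had 99.9 at 2075 bp and 55.1 in its own window. AT1G26920 had 99.9 at 2415 bp. GNC, a GATA factor of greening, had 96.5 at 4365 bp (chr5:22995456-22996335) against 18.8 nearby. PXMT1, a methyltransferase gene, had 95 at 3119 bp, and SAHH2, of the methyl cycle, had 94.7 at 5344 bp. FMO GS-OX3 and FMO GS-OX4, which modify glucosinolates, flanked a region scored 91.9, and neither had one within 1000 bp. AT3G26490 followed with 91.6 at 4147 bp, AT1G60160 and the trehalose phosphate synthase family gene TPS10 with 90.2, and HB21, a homeodomain-leucine zipper gene, with 88.2 at 3021 bp. PSS1, of phosphatidylserine synthesis, and RHA2A, a RING finger gene of abscisic acid signalling, flanked a score of 87.8. BRU6, an auxin-conjugating enzyme gene, lay 2789 bp from a score of 85.6. In 5 of the 20 strongest the nearest gene had no region of its own. ARF6, TOE2 and RAV1, the other named genes of the 20, are described with their gaps.

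Single gaps could hold whole rows of regions. The largest number was 9, in the 18847 bp between AT1G71870 and SUC1, a sucrose transporter gene, from chr1:27039587-27039689 to chr1:27049411-27049967. Their scores were 2.21 to 23.3, and this gap also held the 3 members farthest from any gene, at 9386, 9033 and 8647 bp. The gap between WOL, a cytokinin receptor gene, and EXGT-A3, of cell wall remodelling, held 8 at 3.77 to 20.1, and that between TSD2 and AT1G78260 held 8 at 2.56 to 21.3. In the gap between GATL3 and RAV1, an AP2/B3 transcription factor gene, 7 regions scored 2.1 to 87.4. The strongest of them, 87.4 at chr1:4535771-4536592, lay 5959 bp from GATL3 and 5987 bp from RAV1, and RAV1 had 74.5 in its own window.

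The longest gaps were not the fullest. The 5 longest gaps with a distal region measured 28984, 27215, 21071, 19928 and 19703 bp, and the 4 longest of them held a single one each. These were scored 11.8 between AT5G37070 and AT5G37130, 16.6 between SDG21 and GDU4, 11.6 between nMAT1 and GA2OX2, and 3.90 between AT2G25010 and AT2G25050. The last, between TIP2, an aquaporin gene, and AT3G26539, held 6 at 4.50 to 26.0. ARF6, an auxin response factor gene of flower maturation, borders 19010 bp with 6 distal regions. Those at 2004 and 4777 bp from ARF6 scored 66.6 and 98.1, the second at chr1:10695242-10696288, and the other 4 scored 4.30 to 9.83.

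The widest distal region, 1957 bp at chr1:22184355-22186311, lay between TPS10 and AT1G60160. Widths of 1820, 1733, 1704 and 1653 bp followed, beside AT5G61990 (score 21.1), OPT9, an oligopeptide transporter gene (40.2), ERCC1, of DNA repair (31.0), and between LEJ2 and AP2 (64.5). The 5 widest all scored above the list median of 10.1, and the lowest of these scores, 21.1, stood at percentile 73.6 of the list.

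**Figure D4:**
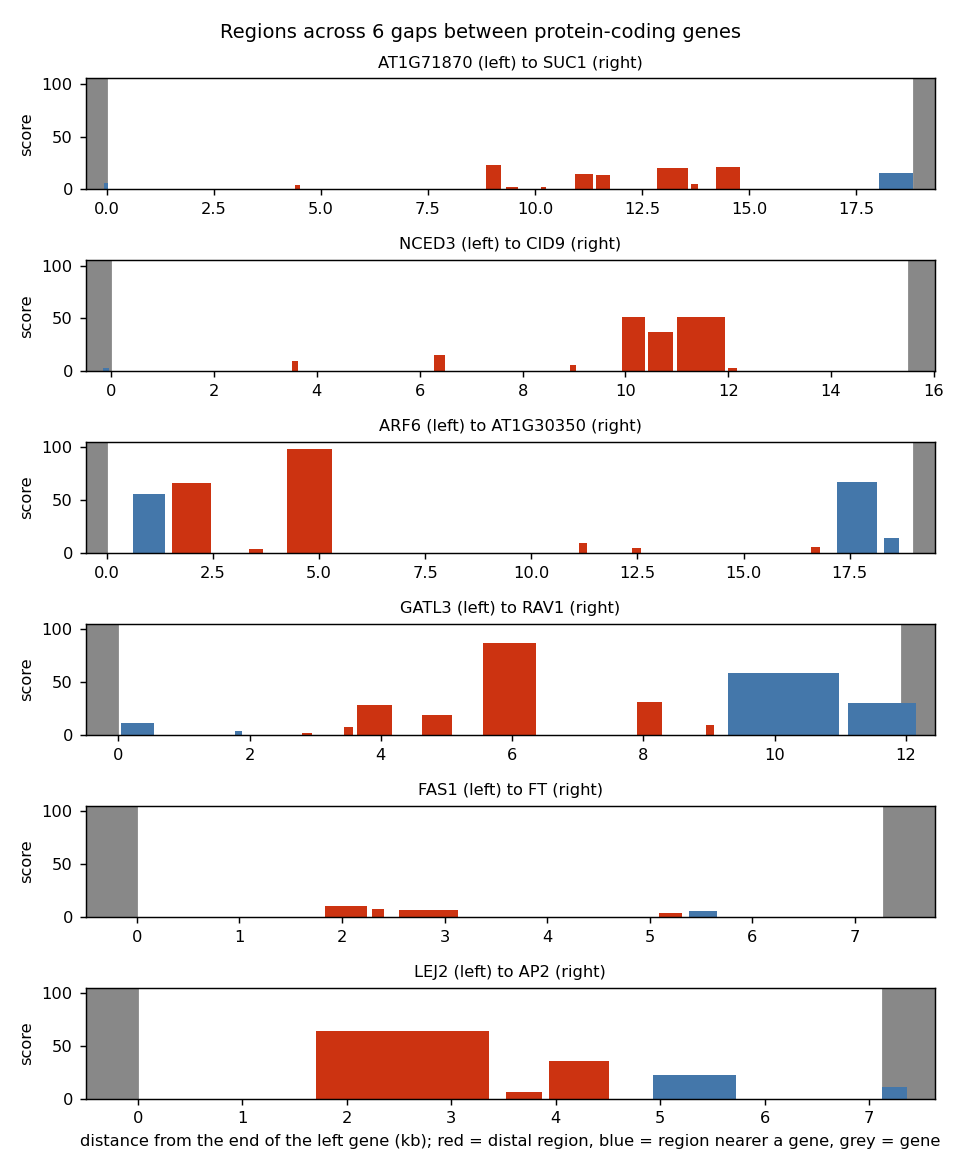
Regions across 6 gaps, as bars of their width (x axis, kb from the end of the left gene) and score (y axis). Red bars are distal regions, blue bars are regions nearer a gene, and grey blocks are the flanking genes. The gaps were picked after their values were seen. The SUC1 gap holds 9 distal regions scored 2.21 to 23.3, whereas the ARF6 gap has 98.1 as its highest score, near ARF6.

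Flowering genes were frequent neighbours. Of 30 listed flowering time and floral identity genes, 9 flanked a distal region (30.0%, 14.7 to 49.4), against 4.00% of all arm genes. Long gaps are common around them, as 13 of the 30 border one over 4000 bp, so 69.2% of those able to have a distal region had one, compared with 25.9% of all arm genes that border such a gap. The 25.9%, here and for the lists below, was not matched for gap length or position on the arm. Longer gaps and gaps farther from the pericentromeric windows more often held a distal region. The lists were written with earlier results of these data known, so these shares describe the lists and support nothing further. Of these 9, 7 encode floral repressors or their close relatives, which delay the transition to flowering. The share of such genes among all 30 was not counted, so this describes the 9 only. AP2, TOE1, TOE2, TOE3 and SMZ are AP2-like genes that microRNA miR172 acts on, and TEM1 and TEM2 are RAV-type repressors of the florigen gene FT. The other two were FT itself and AP1, a floral identity gene.

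**Figure D5:**
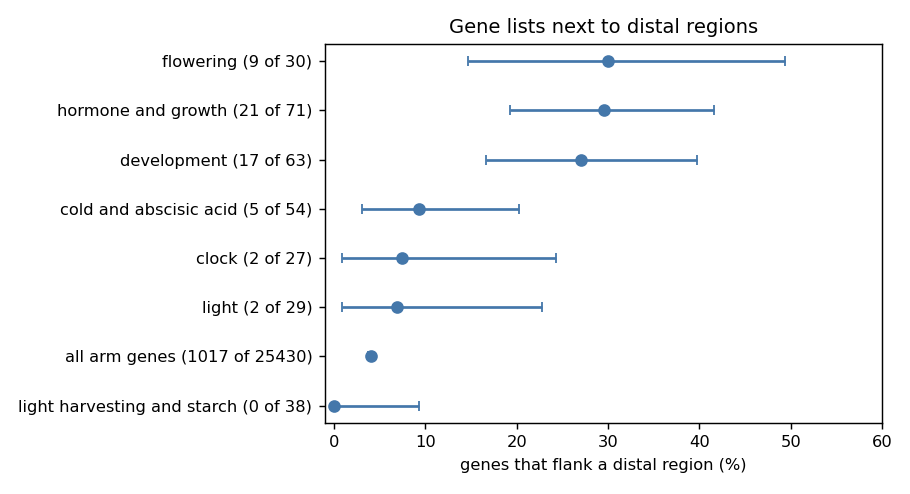
Share of each gene list, and of all arm genes, that flanks a distal region (x axis, %), with exact 95% intervals. The y axis names the list and its counts. Flowering, hormone and growth, and development genes stand between 27.0% and 30.0%, and the remaining lists at or below 9.26%.

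A flanking gene need not be the nearest one. At least 1 distal region had the listed gene as its nearest for 8 of the 9 flowering genes, 13 of the 21 hormone and growth genes, 12 of the 17 development genes, 2 of the 5 cold and abscisic acid genes and none of the clock and light genes.

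TOE2 had the strongest of these distal regions, with 89.5 at chr5:24205109-24206065. It lay 2103 bp from TOE2 and 2650 bp from PUM18, an RNA-binding Pumilio family gene, and the highest score inside or within 1000 bp was 7.42 at TOE2 and 93.8 at PUM18. TOE1 had 73.9 at 4353 bp (chr2:12232592-12233363), 34.4 at 2531 bp and 5.36 at 3222 bp, beside 70.8 in its own window. The first of these lay nearer to RAD51B, a DNA repair gene, at 2898 bp, and RAD51B had 86.4 in its own window. In the gap between LEJ2 and AP2 the region of 64.5 at chr4:17395188-17396840 lay 4597 bp from AP2 and 2535 bp from LEJ2, and others of 36.0 and 6.84 lay nearer to AP2, whose own window reached 10.9. SMZ had 63.2 at 2178 bp (chr3:20377967-20379434) and no region inside or within 1000 bp. A further region in the AP2 gap, less than 2000 bp from AP2 but outside its own window, scored 22.2. At AP2 and TOE2 the highest distal score was thus well above that in the gene's own window, though at AP2 it lay nearer to LEJ2. SMZ had no score there, and at TOE1 the values were close. TOE3 had a single region of 11.0 at 2211 bp.

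TEM1 had 3 distal regions, scored 37.3, 8.00 and 2.1, and 33.3 in its own window. AT1G25570 lay nearer to those of 8.00 and 2.1. TEM2, which the gene table calls RAV2, shared a region of 17.4 with STN7, a thylakoid kinase gene of light acclimation. At AP1 the scores were 40.5, 3.97 and 2.84, and the regions of 40.5 and 3.97 lay nearer to AT1G69150 than to AP1. FT had 4 distal regions toward FAS1, a chromatin assembly gene. Their scores were 10.3 at 5243 bp (chr1:24325930-24326331), 7.87 at 4931 bp, 6.74 at 4441 bp and 3.95 at 2079 bp. The first 3 lay nearer to FAS1, and FT had no region inside or within 1000 bp. A further region in this gap, less than 2000 bp from FT, scored 5.18.

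Of 27 listed clock genes, 2 flanked a distal region (7.41%, 0.910 to 24.3), against 4.00% of all arm genes, which lies inside that interval. Few clock genes border a gap over 4000 bp, and 2 of the 3 that do flank a distal region (66.7%), against 25.9% of all arm genes that border one. PRR5, a repressor of LHY that is active after midday, lay 2682 bp from a region of 63.7 at chr5:8360694-8361762, with AT5G24480 nearer at 2604 bp. PRR5 itself had 60.4. RVE2, a relative of LHY, lay 2738 bp from a region of 51.5 at chr5:14755302-14756351, with AT5G37270 nearer at 2107 bp, and had 60.1 of its own. Distal and own-window scores were thus of like size at both genes. Of 29 light signalling genes, PIL2, of the phytochrome-interacting factor family, had 13.9 and the blue light receptor gene CRY1 had 6.63, both below the 72.2 and 29.6 in their own windows. None of 38 light-harvesting and starch genes flanked a distal region (0%, up to 9.25), an interval that holds the 4.00% of all arm genes, and 3 of them border such a gap.

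Of 54 cold and abscisic acid genes, 5 flanked a distal region (9.26%, 3.08 to 20.3), and the 4.00% of all arm genes lies inside that interval. Of the 12 that border a gap over 4000 bp the share was 41.7%, against 25.9%. Of the 5, 4 encode enzymes that make or break down abscisic acid, the drought hormone. The share of such enzyme genes among all 54 was not counted. NCED3, of the rate-limiting step of synthesis under drought, had 9 distal regions. Of these, 7 lay on the side of CID9, in a gap of 15523 bp. Those with scores of 51.8 (chr3:4843958-4844398), 36.8 and 51.5 (chr3:4845018-4845950) lay next to each other at 10163, 10680 and 11469 bp from NCED3 and nearer to CID9. On the other side, 2152 bp away, 1 scored 42.6, whereas the highest in the own window of NCED3 was 4.34. NCED2, a related enzyme gene, had 4 at 4.68 to 21.8 and no own region. AT4G18340 lay nearer to that of 13.2. CYP707A3, of abscisic acid breakdown, had 61.3 at 7900 bp (chr5:18378283-18379560), 24.3 and 2.57, against 4.04 in its window. CYP707A1, with the same function, had 33.9 at 8875 bp against 6.92. In the CYP707A1 and CYP707A3 gaps the other flanking gene was nearer each time. ICE1, a cold signalling factor, had 6.21, with AT3G26750 nearer.

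Of 71 hormone and growth genes, 21 flanked a distal region (29.6%, 19.3 to 41.6), against 4.00% of all arm genes. Of the 40 that border a gap over 4000 bp the share was 52.5%, against 25.9%. Gibberellin synthesis genes without any region inside or within 1000 bp were GA20OX3 (100 and 11.3), GA20OX2 (14.5) and GA20OX1 (8.16). GA3OX1, of the last step, had 18.3, 11.8 and 11.4 beside 49.6 in its own window. The breakdown genes GA2OX8 and GA2OX2 had 21.2 at 4213 bp and 11.6 at 17109 bp. AT4G21192 and nMAT1 lay nearer to these regions, at 2927 and 3963 bp. The growth repressor gene RGL1 had 13.0 and 5.45. The score of 100 at GA20OX3 was the highest of the gibberellin genes named here, and its second score was below that of GA20OX2. For cytokinin breakdown, CKX3 had 54.2 at 4925 bp with no own region and AT5G56980 nearer at 2863 bp, and CKX5 had 28.9 and 11.9. AT1G75460 lay nearer to both CKX5 regions. In the brassinosteroid pathway, the receptor gene BRI1 had 39.7 and 16.6, the synthesis genes CPD and DWF4 had 38.1 and 13.7, and the breakdown gene BAS1 had 5.34. NST-K1 lay nearer to the region of 39.7, and PID2 to that of 5.34. CPD scored 3.95 in its own window. Auxin repressor genes shared gaps, with 14.1 and 11.1 between IAA1 and IAA14 and 26.4 and 4.64 between IAA2 and IAA7. The auxin synthesis genes YUC8 and TAA1 had 21.5 and 13.6, and the ethylene synthesis genes ACS8 and ACS5 had 7.74 and 4.53. At YUC8 and TAA1 the other flanking gene was nearer.

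Of 63 development genes, 17 flanked a distal region (27.0%, 16.6 to 39.7), against 4.00% of all arm genes. Of the 38 that border a gap over 4000 bp the share was 44.7%, against 25.9%. JAG, which promotes organ growth, had no region inside or within 1000 bp but 85.4 at 3973 bp (chr1:25689804-25690533). AT1G68490 lay nearer to that region, at 3281 bp, and had 52.6 in its own window. ANT, another organ growth gene, likewise had none of its own but distal scores of 49.1, 23.0 and 11.5, the last with GRF2 nearer. TCP10, a leaf growth regulator, had 35.1, 33.7, 33.1 and 2.64 beside 80.2 in its own window. The regions of 35.1 and 33.7 lay nearer to CLE4. ARF19, of auxin response, had 33.0 at 8141 bp, with AT1G19230 nearer at 2669 bp. TTG1, of trichome and pigment formation, had 29.1 with DMR6 nearer, and TRY, a trichome repressor gene, had 22.5, 15.1 and 6.54. SWEET3 lay nearer to the TRY regions of 15.1 and 6.54. REV, of leaf polarity and vasculature, had 4 at 7.08 to 20.7 and KAN1, its counterpart on the lower leaf side, 5 at 2.95 to 8.40. AT5G60680, with 47.0 in its own window, lay nearer to the REV regions of 20.7, 15.9 and 7.08. GLN1;4 lay nearer to the KAN1 regions of 7.09, 3.42 and 2.95. The remaining genes were PLT3 (15.4), ATHB2 (12.7), STM (12), BRC1 (11.8), ATHB4 (11.7), AG (10.2), ARF5 (7.05) and PLT1 (6.46), which act in root, shade, meristem, branching, flower and auxin pathways. At STM, BRC1 and PLT1 the other flanking gene was nearer. Of the 17, 9 had no region of their own. Among all 1017 genes flanking a distal region 62.3% had one, and among all arm genes 45.2% did.

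Genes with a transcription factor family symbol made up a larger share of the genes beside distal regions than of those beside long gaps or of all arm genes. The comparison shares were not matched for gap length or position on the arm, and both went with how often a gap held a distal region. A symbol or synonym of 46 family name stems was found for 115 of 1017 flanking genes (11.3%, 9.43 to 13.4), for 314 of all 3926 genes that border a gap over 4000 bp (8.00%, 7.17 to 8.89), for 200 of 2910 genes that border one without a distal region (6.87%, 5.98 to 7.85) and for 857 of all 25430 arm genes (3.37%, 3.15 to 3.60). It was 81 of 637 nearest genes (12.7%, 10.2 to 15.6), and 196 of the 866 distal regions had such a gene on at least 1 side. Of the 40 genes beside the 20 strongest, 7 had one, which were LBD11, BBX15, ARF6, GNC, TOE2, HB21 and RAV1. By stem there were 15 of 47 homeobox HB symbols, among them HB5, HB6 and HB-7, 10 of 32 IAA, 5 of 18 ARF, 5 of 22 TCP, 19 of 119 MYB, 11 of 97 ANAC and 7 of 69 WRKY. Matching by symbol takes in a few genes that are no transcription factors and misses those named otherwise.

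Some distal regions lay close to microRNA genes, which the distance rule did not count as genes. Of 45 such genes in distal arm sequence, 17 had a distal centre within 2000 bp (37.8%, 23.8 to 53.5). The same held for 25.0% of distal base pairs, which lies inside that interval. For 495 pseudogenes the share was 7.07% (4.97 to 9.70), and for 89 tRNA genes 4.49% (1.24 to 11.1). Within 500 bp of a microRNA gene lay 1.15% (0.555 to 2.11) of distal centres and 0.918% of distal base pairs. In all, 23 microRNA genes had 30 distal regions within 2000 bp. MIR167a, whose product acts on ARF6, had 69.6 at 1749 bp (chr3:8105973-8106675), 8.83 and 4.73. MIR393b, of the auxin receptor pathway, had 53.4 at 1215 bp, and MIR164b, whose product acts on NAC genes, had 50.3, 11.8 and 9.42. MIR159a, which acts on MYB genes, had 30.3 at 1355 bp, and MIR167d had 25.1 at 280 bp. MIR156c, of the juvenile phase, had 27.4 at 513 bp and 16.0 at 261 bp. MIR172b, which acts on the AP2-like genes named above, had 13.4 at 790 bp. MIR166a, of leaf polarity, had 3 at 4.84 to 6.02, and MIR319c, which acts on TCP genes, had 7.37 at 3 bp. Over all 23 genes the scores ran from 2.51 to 69.6.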

How the data were processed

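The authors deposited 1 region list, in which each region has a score made by the authors. Reads were processed with Bowtie and MACS2 (2.0.10.09132012) on the TAIR9 genome, per the submitters' processing notes. Scores served only to rank and describe regions within this list, since the sources used here do not give their scale, the threshold, the read filters or the depth.

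Regions were placed by their midpoint against a table of genes from RefSeq, assembly TAIR10.1 (27444 nuclear protein-coding genes), whose nuclear sequence is that of TAIR9. That table is of the Columbia accession, while the plants were WS. It holds no strand or sequence, so the side of a gene and sequence motifs were not analysed. A gap is a stretch over 4000 bp between neighbouring genes on an arm, and a gene's own window is the gene and 1000 bp on either side. Intervals of shares are exact (Clopper-Pearson) and those of medians come from order statistics. Scripts used Python 3.11.15, pandas 2.3.3 and scipy 1.17.1 and were tested on simulated data.

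Named genes were those flanking the 20 strongest, 5 farthest and 5 widest distal regions and the 5 longest gaps with a region, and all members of 7 lists (312 genes) that flank a distal region. The gaps with the most regions and the transcription factor and microRNA genes named fall outside this rule and were chosen after their values were seen. The members and lists were chosen with earlier results of these data known. One gene family counted among the stems is not reported here.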

Additional observations from a re-analysis of the deposited data

How the results depend on the processing

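No paired analysis was possible because there was 1 library per genotype and no result comes from a test. A limit of 1500 bp gave 1408 distal regions at 170 per Mb, and 3000 bp gave 346 at 124 per Mb, with a median score of 9.37. At 3000 bp only gaps over 6000 bp were counted, and 20.9% of them held one. That share is therefore not comparable with the 24.4% of gaps over 4000 bp. Keeping scores at or above the list median, which raises scores and thins regions by construction, left 431 regions at 76.3 per Mb, with a median score of 22.7, width of 467 bp, 50.6% and 19.5% in the strongest 25% and 10%, 23.7% with a neighbour, 43.4% of nearest genes with their own region and 15.0% of gaps. Merging within 200 bp gave 129 per Mb, a score of 11.4, a width of 344 bp, 28.7% in the strongest 25% and 26.7% with a neighbour. A merged region kept its highest score and was ranked against the unmerged list, which raises scores and widths by construction. For arm regions that are not distal the median score was 11.3 after merging, against 10.1 before. With the whole region beyond 2000 bp, width was 259 bp and 20.2% of gaps held one, and no density was computed. Windows widened by 1 Mb gave 191 per Mb and 26.9% of gaps. Also beyond 2000 bp of other annotated genes, values were 237 per Mb, 20.4% of gaps and, by construction, 0% within 500 bp of such genes. Of the 866 members 7.16% lay within 500 bp of them, against 34.7% of distal base pairs, and 2.42% lay inside them, against 25.8%. A neighbour within 500 or 2000 bp was found for 21.4% and 75.4%, and 56.8% of nearest genes had a region within 500 bp. Transcription factor shares stayed at 10.5% to 12.9%. Beyond what construction sets, the cause was not tested. Most alternatives for gaps and other annotated genes were added after seeing the data. Depth limits what a missing region can show, and the analyses by gene side and motif were not run.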

Other observations

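Distal regions inside other annotated genes numbered 21, or 2.42% of the members, in genes that make up 25.8% of distal base pairs. TAS3, the source of small RNAs that act on auxin response factor genes, held the centre of a region of 25.3 (chr3:5861982-5862653), and another of 6.30 lay 190 bp away. The spliceosomal RNA gene U2.6 held 33.4 at chr3:21004140-21004874, and U6.11p had 33.3 at a distance of 79 bp. The misc_RNA gene AT1G08895 held 4 regions, scored 9.45, 9.34, 3.88 and 2.04. The tRNA genes AT5G56975, beside CKX3, and AT1G69130, beside AP1, lay 1554 and 650 bp from regions of 54.2 and 40.5. These genes were picked after their values were seen.

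Of the distal regions with no region inside or within 1000 bp of either flanking gene, the strongest lay beside PXMT1 (95), between FMO GS-OX3 and FMO GS-OX4 (91.9), between AT3G26480 and AT3G26490 (91.6) and beside HB21 (88.2). Between AT2G28050 and AT2G28060 the score was 78.0, between GYRB3 and AT5G04120 it was 68.8, and between SMZ and TON1A it was 63.2.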
